A study of Mus musculus with 6 samples.

Results

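The 10 genes described here encode the 4 CDC-like kinases (Clk1, Clk2, Clk3 and Clk4), 4 serine/arginine-rich splicing factors, or SR proteins (Srsf2, Srsf3, Srsf5 and Srsf7), and the cold-inducible RNA-binding proteins Cirbp and Rbm3. They were taken by gene symbol, and all 10 were found among the 25330 genes of the deposited tables. They were measured by RNA-seq in AML12 cells, an immortalized line of wild-type-labelled mouse hepatocytes derived from animals with a TGF-alpha transgene. The 3 Control libraries came from cells kept in 21% oxygen. The 3 hypoxia-reoxygenation (H/R) libraries came from cells held in 1% oxygen for 6 h and returned to normal oxygen for 2 h. The hypoxic phase was run in medium without serum and glucose, so the effects of oxygen and of medium cannot be told apart. Nothing in the labels says whether the replicates were separate cultures, so p-values measure the spread between these libraries, which may be technical.

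SR proteins bind exons and recruit the spliceosome through domains rich in arginine and serine. CLK kinases and SRPK kinases phosphorylate these domains, which tunes the activity of SR proteins. Phosphorylation by CLK kinases releases SR proteins from nuclear speckles. Transcripts of both families are themselves subject to splicing control, since CLK transcripts can keep introns in the nucleus and SR genes contain poison exons that send transcripts to nonsense-mediated decay. Cirbp and Rbm3 are small glycine-rich proteins with a single RNA recognition motif, known for their rise in mild cold and also described as responsive to low oxygen.

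Total counts were between 20438746 and 21854790 per library. Control replicate 1 differed from the other Control libraries by a chi-square per degree of freedom of 15.5 and 16.2, against 5.60 between Control replicates 2 and 3 and 2.19 to 3.35 between H/R libraries, and results without it are given below. The hepatocyte regulator Hnf4a and the epithelial keratins Krt8 and Krt18 were abundant, with 2912 ± 104, 51381 ± 1351 and 32116 ± 1095 normalized counts in Control (SD, n = 3). Albumin (Alb) was low and uneven, with 542 counts in Control replicate 1, 132 and 209 in the other Control libraries and 31 to 43 in the H/R libraries. After H/R 4 of the 6 hepatocyte markers were lower (3 without Control replicate 1), with log2 fold changes of -2.85 for Alb, -3.07 for Ttr, -0.99 for Apoa1 and -0.41 for Hnf4a, and Krt8 and Krt18 were higher (1.58-fold each). Their summed normalized count, most of it keratin, was 84077 to 89108 in Control and 133020 to 134910 in H/R. Markers of leukocytes and Kupffer cells, endothelium, stellate cells and blood summed to at most 14.0 normalized counts in any library for each list, and Adgre1, Clec4f, Pecam1 and Lrat had 1 count in Control replicate 1 and 0 in the other libraries. Of 3 biliary markers listed 2 were in the tables, Krt19 and Sox9, and both were higher after H/R (2.002-fold and 5.67-fold). Their summed normalized count was 18064 to 20272 in Control and 37550 to 39789 in H/R, and the part of the hepatocyte and biliary markers in the results below was not tested. Levels are shares of a library, so a lower value can reflect less of that RNA per cell or more of other RNA.

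After H/R, all 4 CLK genes rose, all 4 SR genes fell, Rbm3 rose and Cirbp did not pass the test. A gene was called where the p of edgeR's quasi-likelihood test, adjusted by the Benjamini-Hochberg method across 14020 genes, was under 0.05. By this rule 5 of the 10 members were higher and 4 were lower, while 31.0% of all genes tested were called higher and 31.8% lower, 62.8% in all. A call in itself was therefore common in these data. The study's additional threshold of a 2-fold change was passed by 1 member, Clk4, against 4.25% of all genes called higher and 4.27% called lower. The median log2 fold change was 0.34 over the 10 members and -0.01 over all genes tested. The median of the members lies between those called higher and those called lower and describes neither group. With library totals in place of TMM scaling the median of all genes moved to -0.12 and the calls from 4353 higher and 4453 lower to 3346 higher and 5478 lower. The 9 members called kept their direction and their call under all 15 alternatives run, this one included.

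**Figure D1:**
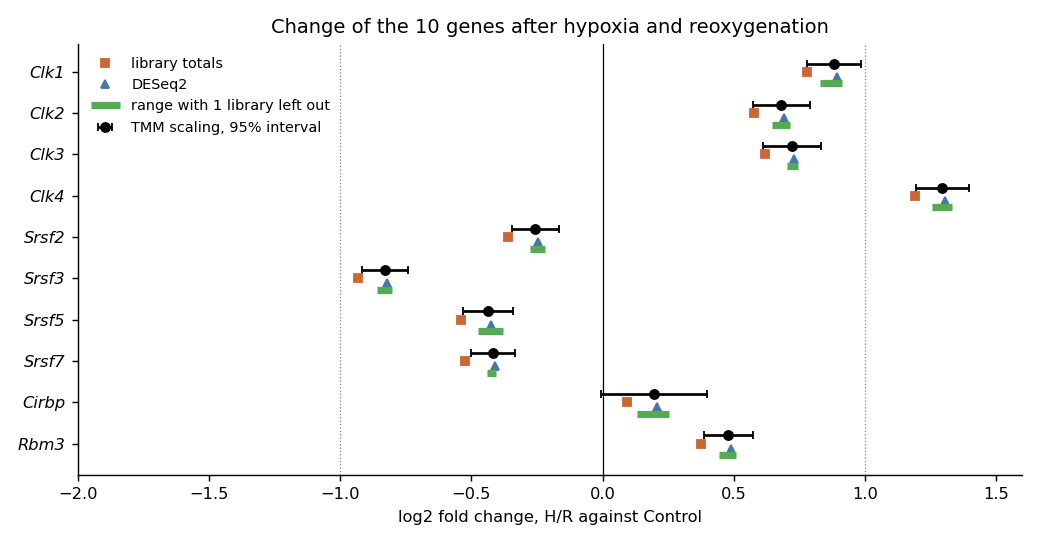
Log2 fold change of each gene, H/R against Control, with its 95% interval under TMM scaling (black), and its value with library totals (square) and DESeq2 (triangle); the green bar is the range with 1 library left out, and dotted lines mark a 2-fold change. The 4 CLK genes and Rbm3 lie above 0 and the 4 SR genes below 0 in every fit shown, and the interval of Cirbp reaches from -0.01 to 0.40.

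Clk4 showed the largest rise of the 10 genes. It had 1045, 1031 and 1015 counts in the 3 Control libraries and 2129, 2217 and 2557 in the 3 H/R libraries. Scaled by TMM, this was 984 ± 25.5 in Control and 2413 ± 132 in H/R (SD, n = 3 each). The log2 fold change was 1.30 (standard error 0.05, adjusted p = 1.02e-21, edgeR's quasi-likelihood test), a 2.45-fold rise, and 2.40% of all genes tested had a larger one. For Clk4, as for each CLK gene, the lowest TMM-scaled H/R value exceeded the highest Control value. A separation in that direction, by any margin, was seen for 32.5% of all genes tested. With TMM scaling the groups did not overlap for any of the 10 members, against 65.9% of all genes in either direction, and with library totals Cirbp overlapped.

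Clk1, the closest relative of Clk4 and the founding member of the family, had 1276, 1239 and 1141 counts in Control and 1971, 2036 and 2118 in H/R. Its normalized count rose from 1164 ± 77.4 to 2145 ± 44.1 (SD, n = 3 each), a 1.84-fold rise (log2 fold change 0.88, standard error 0.05, adjusted p = 5.41e-17, edgeR's quasi-likelihood test). The remaining kinases moved by less. Clk2, which also acts in hepatic gluconeogenesis, had 937, 864 and 866 counts in Control and 1230, 1229 and 1432 in H/R, a 1.604-fold rise (log2 fold change 0.68, standard error 0.05). Clk3 had 781, 730 and 742 counts in Control and 1079, 1087 and 1211 in H/R, a 1.65-fold rise (log2 fold change 0.72, standard error 0.05). The adjusted p was 3.94e-13 for Clk2 and 9.78e-14 for Clk3 in edgeR's quasi-likelihood test. Of the exon length of Clk3, 15.2% is shared with Edc3 on the opposite strand, an mRNA decapping factor that had 526 to 721 counts and a log2 fold change of 0.47. The strand setting of the counting is not given in the sources used here, so the count of Clk3 may contain reads of Edc3 or lack reads of the shared part. Without Control replicate 1 the log2 fold changes were 0.91 for Clk1, 0.72 for Clk2, 0.74 for Clk3 and 1.30 for Clk4.

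The promoters are shown for the members whose change was largest and for the cold-responsive gene Cirbp. RefSeq windows of build GRCm38.p6 were available for 8 members, all except Clk1 and Rbm3, and the 250 bases before the annotated start were read. The window of Clk4 is chr11:51262864-51263113 (plus strand), that of Clk2 chr3:89164545-89164794 (plus strand), that of Clk3 chr9:57765115-57765364 (minus strand) and that of Srsf3 chr17:29032410-29032659 (plus strand). The windows of Clk3 and Clk4 lie inside the gene spans of GENCODE, whose annotation starts farther upstream. Capitals mark TGACG, the core of the cyclic AMP response element bound by CREB and ATF factors, on either strand, where the reverse strand reads CGTCA.
Clk4: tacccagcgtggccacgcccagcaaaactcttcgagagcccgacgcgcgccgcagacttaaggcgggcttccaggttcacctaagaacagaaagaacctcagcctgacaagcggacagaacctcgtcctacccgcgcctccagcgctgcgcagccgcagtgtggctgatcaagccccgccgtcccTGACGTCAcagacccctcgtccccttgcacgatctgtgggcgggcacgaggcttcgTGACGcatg
Clk2: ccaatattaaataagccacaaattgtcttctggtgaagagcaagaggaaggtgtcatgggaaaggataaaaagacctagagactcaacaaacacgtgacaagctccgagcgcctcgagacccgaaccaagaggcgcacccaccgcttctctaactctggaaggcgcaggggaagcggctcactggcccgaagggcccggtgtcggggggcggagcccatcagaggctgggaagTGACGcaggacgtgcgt
Clk3: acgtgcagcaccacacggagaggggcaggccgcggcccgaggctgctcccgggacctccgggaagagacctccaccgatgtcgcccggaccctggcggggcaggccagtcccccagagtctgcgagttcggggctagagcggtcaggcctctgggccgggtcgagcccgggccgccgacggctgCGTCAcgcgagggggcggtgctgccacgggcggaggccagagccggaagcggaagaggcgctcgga
Srsf3: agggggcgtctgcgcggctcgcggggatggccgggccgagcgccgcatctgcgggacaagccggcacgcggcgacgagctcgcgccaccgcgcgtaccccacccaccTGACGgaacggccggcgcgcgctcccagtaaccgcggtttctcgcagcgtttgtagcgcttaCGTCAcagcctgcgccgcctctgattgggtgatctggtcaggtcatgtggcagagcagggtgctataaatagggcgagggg

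The Clk4 window held 3 matches, of which 2 overlap in the full palindrome TGACGTCA, 65 bases before the start. That palindrome was found in 1.55% of the 32851 windows of the same length. Clk2 held 1 match 17 bases before the start, Clk3 held 1 and Srsf3 held 2. In all, 6 of the 9 windows of the 8 members had a TGACG match, against 17.8% of all windows. The genes with a match include genes that rose and genes that fell. The heat shock element core GAANNTTC was found in none of the members' windows and in 6.69% of all windows. The hypoxia response element cores ACGTG and GCGTG were found in 2 and 5 of the 9 member windows, against 16.6% and 28.2% of all windows. The windows were not matched for base composition, and enrichment was not tested. Both strands were searched, and a match describes letters and not binding.

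Among the SR genes Srsf3, which encodes the smallest member of the family and promotes exon inclusion and mRNA export, fell most. It had 5572, 4998 and 5392 counts in Control and 2596, 2584 and 2987 in H/R. Its normalized count fell from 5076 ± 201 to 2856 ± 112 (SD, n = 3 each), to 56.3% of Control (log2 fold change -0.83, standard error 0.04, adjusted p = 7.61e-18, edgeR's quasi-likelihood test). Every H/R library was below every Control library, which held for each of the 4 SR genes and in that direction for 33.5% of all genes tested. In all, 7.18% of all genes tested had a lower log2 fold change than Srsf3.

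Srsf5 and Srsf7 fell by a similar amount. Srsf5, the most abundant SR gene of the 4, had 12018, 12909 and 11686 counts in Control and 8209, 7880 and 8517 in H/R, so that H/R was at 73.9% of Control (log2 fold change -0.44, standard error 0.05, adjusted p = 7.10e-10, edgeR's quasi-likelihood test). Srsf7, a zinc-knuckle SR protein related to Srsf3, had 4797, 4624 and 4586 counts in Control and 3071, 3069 and 3388 in H/R, at 74.8% of Control (log2 fold change -0.42, standard error 0.04, adjusted p = 9.60e-11). Srsf2, a speckle protein that also takes part in transcription elongation, moved least, with 3046, 3026 and 3153 counts in Control and 2156, 2336 and 2527 in H/R. Its log2 fold change was -0.26 (standard error 0.04, adjusted p = 5.75e-06, edgeR's quasi-likelihood test), and 31.0% of all genes tested had a lower one. Of the exon length of Srsf2, 25.3% is shared with Mettl23 and Mfsd11 on the opposite strand. These had log2 fold changes of -0.30 and -0.48 and 314 to 489 and 507 to 950 counts. The count of Srsf2 may contain some of these reads or lack reads of the shared part. Without Control replicate 1 the log2 fold changes were -0.27 for Srsf2, -0.80 for Srsf3, -0.45 for Srsf5 and -0.40 for Srsf7.

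The 2 cold-inducible genes stood far apart in level and were not called alike. Rbm3 had 16987, 15948 and 16539 counts in Control and 21319, 20158 and 21092 in H/R. Its normalized count rose from 15737 ± 302 to 21926 ± 956 (SD, n = 3 each), a 1.39-fold rise (log2 fold change 0.48, standard error 0.05, adjusted p = 3.81e-11, edgeR's quasi-likelihood test). The groups did not overlap, and 2.00% of the exon length of Rbm3 is shared with the antisense transcript Rbm3os, which had 130 to 187 counts.

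Cirbp had 200, 224 and 232 counts in Control and 225, 203 and 256 in H/R. Its normalized count was 209 ± 16.8 in Control and 239 ± 18.7 in H/R (SD, n = 3 each), a log2 fold change of 0.20 with a 95% interval from -0.01 to 0.40 (adjusted p = 0.0845, edgeR's quasi-likelihood test). The lowest H/R library (218.9) was next to the highest Control library (218.5), and the groups overlapped when library totals were used for scaling. The interval leaves room for a rise of up to 1.32-fold. The adjusted p was 0.154 with DESeq2 and 0.447 with library totals, and it passed 0.05 in 1 of 15 alternatives, without H/R replicate 2 (log2 fold change 0.25, adjusted p = 0.0493). Without Control replicate 1 the log2 fold changes were 0.13 for Cirbp (adjusted p = 0.309, edgeR's quasi-likelihood test) and 0.49 for Rbm3.

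Cirbp has a known element for mild cold, TCCCCGCC, and its promoter is printed for that reason, with the element in capitals (chr10:80167589-80167838, plus strand, GRCm38.p6).
Cirbp: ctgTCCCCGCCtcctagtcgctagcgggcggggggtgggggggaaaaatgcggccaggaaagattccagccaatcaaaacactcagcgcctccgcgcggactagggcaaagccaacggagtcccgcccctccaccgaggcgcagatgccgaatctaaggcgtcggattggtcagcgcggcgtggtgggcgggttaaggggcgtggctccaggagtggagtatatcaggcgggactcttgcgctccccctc

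This is the first of 2 RefSeq windows of Cirbp and lies inside its GENCODE span. The element lies 247 bases before the start of that window's transcript. Among the other 7 members with a window, only Srsf7 held the same letters, and 4.64% of all windows did.

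**Figure D2:**
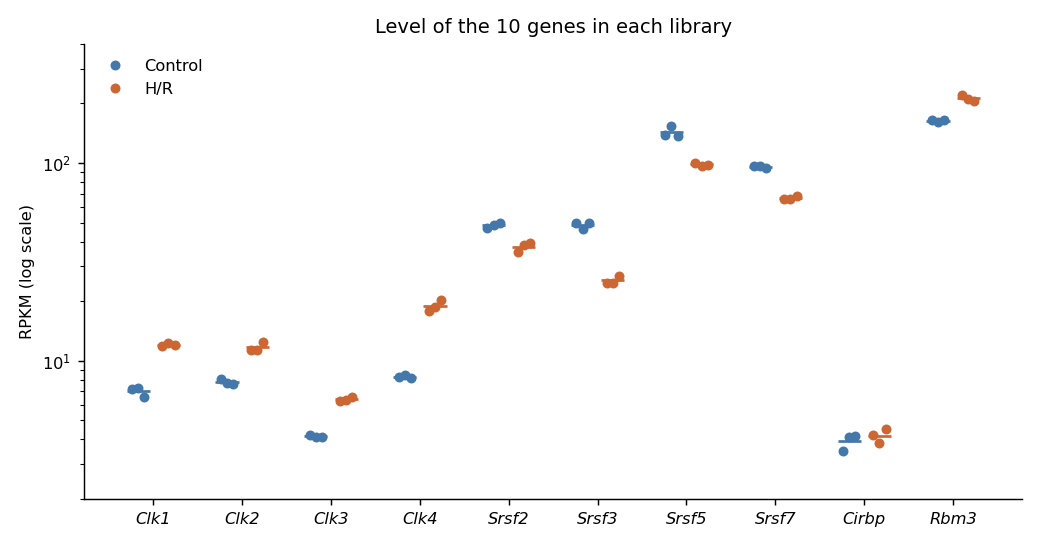
RPKM of each gene in each of the 6 libraries on a log axis (blue, Control; orange, H/R; each point is a library and each bar a group mean). The CLK genes and Cirbp lie between 3.51 and 20.3 RPKM and the SR genes and Rbm3 above them, at 24.7 RPKM or more.

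Per kilobase of counted gene length, Rbm3 was the most abundant member in Control, at 164 ± 2.23 RPKM (SD, n = 3), followed by Srsf5 at 143 ± 9.40 RPKM and Srsf7 at 95.7 ± 1.17 RPKM. Srsf3 (48.6 ± 1.85 RPKM) and Srsf2 (48.6 ± 1.44 RPKM) overlapped. The kinases followed at 8.31 ± 0.13 RPKM for Clk4, 7.84 ± 0.22 for Clk2, 7.002 ± 0.37 for Clk1 and 4.15 ± 0.07 for Clk3, the last of which overlapped with Cirbp at 3.93 ± 0.36 RPKM. After H/R the order changed in 2 places. Srsf3 (25.5 ± 1.24 RPKM) came to lie below Srsf2 (37.8 ± 2.02 RPKM) without overlap, and Clk1 (12.01 ± 0.22 RPKM) came to overlap Clk2 (11.7 ± 0.64 RPKM). Clk4 reached 19.0 ± 1.22 RPKM, Clk3 6.37 ± 0.20, and Cirbp stayed lowest at 4.18 ± 0.35 RPKM, no longer overlapping Clk3.

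What the counts measured in these genes depends on the gene models, given here with GRCm38 coordinates. Clk1 lies at chr1:58410189-58424066 (minus strand), Clk2 at chr3:89164795-89176921 (plus strand), Clk3 at chr9:57750624-57765860 (minus strand) and Clk4 at chr11:51261730-51281766 (plus strand). Srsf2 lies at chr11:116849901-116853094 (minus strand), Srsf3 at chr17:29032673-29043366 (plus strand), Srsf5 at chr12:80945504-80950507 (plus strand) and Srsf7 at chr17:80200089-80207305 (minus strand). Cirbp lies at chr10:80165985-80172786 (plus strand) and Rbm3 at chrX:8138975-8145880 (minus strand). All 10 members have at least 1 retained-intron transcript and at least 1 nonsense-mediated decay transcript in GENCODE M21, while 23.7% of the 11091 protein-coding genes tested have both. Clk1 and Clk4 have 7 retained-intron transcripts each. In the deposited tables, 77.9% of the counted length of Clk1 lies outside every exon of its protein-coding transcripts, a larger share than in 99.5% of the 11028 genes compared, and the share was 62.2% for Clk4, 58.4% for Clk3 and 56.8% for Clk2. It was 58.5% for Srsf5, 49.8% for Srsf3, 45.7% for Cirbp, 32.3% for Srsf2 and 23.9% for Rbm3. The model of Srsf7 holds no such bases, and the median of all genes compared was 10.3%. GENCODE M21 lists 3 retained-intron transcripts and 1 nonsense-mediated decay transcript for Srsf7. Its share does not show whether reads of these were counted. The counts can therefore include reads of spliced coding transcripts and of other annotated transcripts, such as those with retained introns or poison exons. Which of these were present or changed cannot be read from the counts. RPKM divides by the whole counted length.

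**Figure D3:**
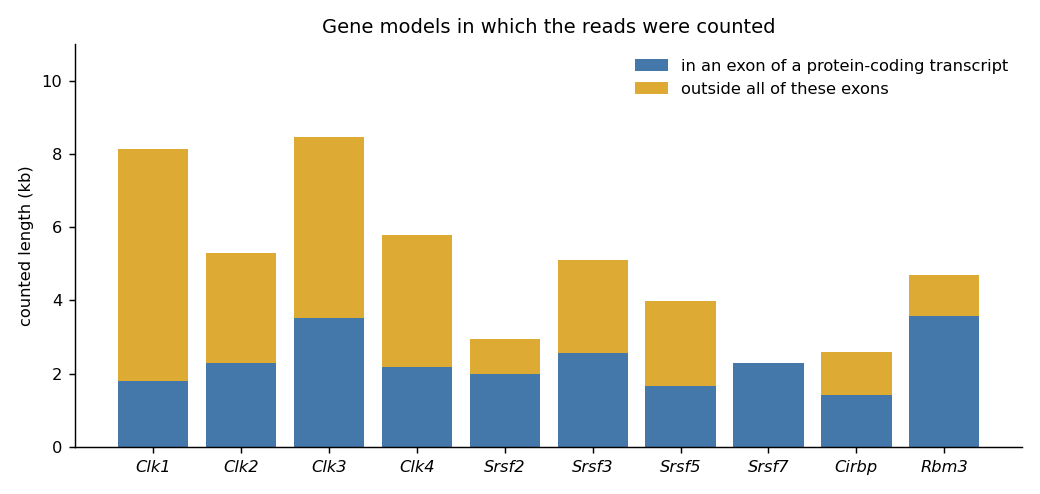
Counted length of each gene in kilobases, split into bases inside an exon of a protein-coding transcript of GENCODE M21 (blue) and bases outside all of these exons (yellow). The yellow part is 6336 of 8132 bases in Clk1 and 0 of 2279 bases in Srsf7.

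Whether related members changed by different amounts was examined with ratios of counts within each library, which do not depend on scaling. With 3 libraries against 3, the smallest p of the exact two-sided permutation test is 0.1, so none of the 6 pairs compared could pass 0.05. Per 1 read of Clk4 there were 1.18 reads of Clk1 in Control and 0.89 in H/R, a log2 ratio of 0.24 ± 0.06 against -0.17 ± 0.09 (SD, n = 3 each, exact p = 0.1, adjusted 0.15). Clk1 in turn gained on Clk2, with a log2 ratio of 0.45 ± 0.06 in Control and 0.66 ± 0.08 in H/R, and on Clk3, with 0.70 ± 0.07 and 0.86 ± 0.05 (exact permutation p = 0.1 and adjusted 0.15 for each). The ratios did not overlap between groups in these 3 pairs.

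The log2 ratio of Srsf3 to Srsf7 went from 0.19 ± 0.07 in Control to -0.22 ± 0.04 in H/R (SD, n = 3 each, exact permutation p = 0.1, adjusted 0.15), again without overlap. Srsf2 to Srsf5 had log2 ratios of -1.99 ± 0.10 and -1.81 ± 0.10, and Cirbp to Rbm3 of -6.24 ± 0.15 and -6.52 ± 0.14 (exact permutation p = 0.2 and adjusted 0.2 for each). In both of these pairs the groups overlapped, and no difference in their changes was detectable with these libraries.

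**Figure D4:**
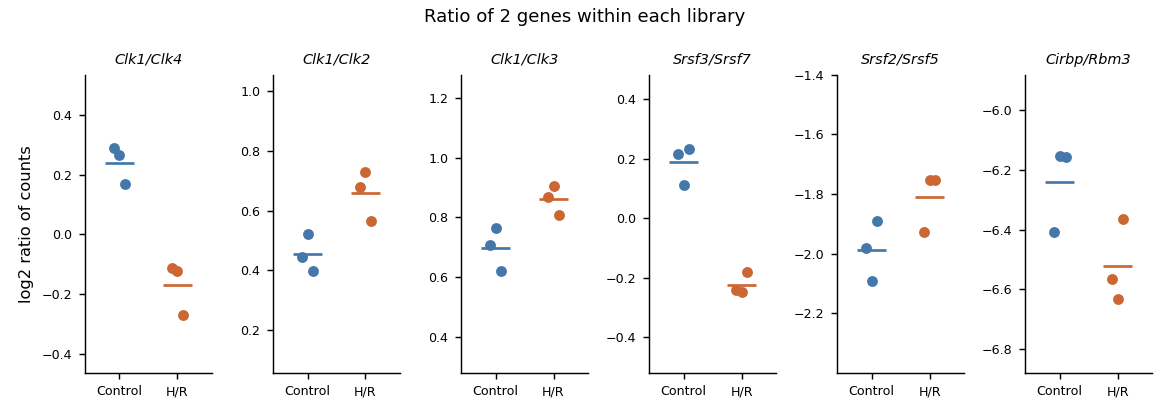
Log2 ratio of the counts of 2 members in each library (points) with the group mean (bar), for the 6 pairs; every panel spans 1 log2 unit. Control and H/R are separate in the first 4 panels, Clk1/Clk4, Clk1/Clk2, Clk1/Clk3 and Srsf3/Srsf7, and overlap in the last 2.

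The genes whose centred log2 CPM over the 6 libraries was most like that of Clk4, among 10177 genes with a mean normalized count of at least 100, were Gfpt1, the rate-limiting enzyme of the hexosamine pathway, Klf4, a zinc finger transcription factor, and Ablim1, an actin-binding protein. Their root mean square differences from Clk4 were 0.041, 0.048 and 0.048 on the log2 scale, and their log2 fold changes were 1.34, 1.30 and 1.24. For Srsf3 they were Ppip5k1, an inositol pyrophosphate kinase, Pttg1, which encodes securin, and Espl1, which encodes separase. Their differences from Srsf3 were 0.020, 0.026 and 0.031 and their log2 fold changes -0.85, -0.83 and -0.80.

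The counts of the following lists stand beside the 31.0% of all genes tested that were higher and the 31.8% that were lower, and nothing is read as particular to a list. Of 9 other SR and SR-like genes listed, 8 could be tested, of which 2 were higher and 4 lower, with a median log2 fold change of -0.21. Srsf1, the prototype SR protein, fell from 5881 ± 94.2 to 2174 ± 95.6 normalized counts (SD, n = 3 each, log2 fold change -1.44, adjusted p = 1.25e-24, edgeR's quasi-likelihood test), more than any of the 4 SR members. Srsf9 fell as well (log2 fold change -0.67). Srsf4 and Tra2a rose, by 0.37 and 0.20 on the log2 scale. With library totals 1 was higher and 6 were lower, and Tra2a was no longer called. Of 5 tested kinases outside the CLK family, 3 were higher and 1 lower (median 0.45). The number lower was 2 without Control replicate 1 and with library totals. Srpk2 rose from 1330 ± 80.1 to 2605 ± 18.7 normalized counts (log2 fold change 0.97) and Dyrk1a by 0.58, whereas Srpk1, the broadly expressed cytoplasmic SR kinase, fell from 3630 ± 50.6 to 2528 ± 33.8 (log2 fold change -0.52).

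In the core spliceosome, 19 of 30 genes (63.3%) were lower and 4 (13.3%) higher, against 31.8% and 31.0% of all genes tested, with a median log2 fold change of -0.20 against -0.01. Snrpd2, a ring protein of the spliceosomal snRNPs, and Prpf31, a tri-snRNP protein, had log2 fold changes of -0.58 and -0.54, and the U2 snRNP genes Sf3a1 and Sf3b1 of 0.37 and 0.31. Of 24 hnRNP genes, which encode RNA-binding proteins that often act against SR proteins, 6 (25%) were higher and 11 (45.8%) lower (median -0.09), and with library totals 4 were higher and 16 lower. Hnrnph2 and Hnrnpab had log2 fold changes of -0.60 and -0.55, and Hnrnpa1 and Ptbp1 of 0.37 and 0.30. All of these named genes passed the test, and their changes were smaller than those of Clk4 and Srsf3.

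The nuclear speckle list of 9 genes includes Neat1, a long noncoding RNA of paraspeckles rather than speckles. In this list 3 genes were higher and 3 lower (median -0.01). Log2 fold changes were 0.50 for Neat1, 0.46 for Srrm1, -0.32 for Srrm2 and -0.25 for Ddx39b. Without Control replicate 2, 5 genes of the list were higher. Of 10 nonsense-mediated decay genes 3 were higher and 3 lower (median -0.08), and with library totals 3 were higher and 6 lower. The helicase Upf1 and the endonuclease Smg6 had log2 fold changes of -0.38 and -0.46, and Upf2 and Smg8 of 0.39 and 0.38.

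Beside Cirbp and Rbm3, 5 genes of the cold shock domain proteins and Rbmx were listed, of which 4 were higher and 1 lower (median 0.14). Carhsp1 and Ybx1 rose by 0.42 and 0.24 on the log2 scale, and Rbmx, a glycine-rich protein with an RNA recognition motif like that of Rbm3, fell from 977 ± 5.82 to 701 ± 39.7 normalized counts (log2 fold change -0.48). Without H/R replicate 1 the number higher was 2, as it was with library totals. Heat shock genes move opposite to the cold-inducible genes in temperature shifts. Of 8 tested, 3 were higher and 4 lower (median -0.09). Log2 fold changes were 6.68 for Hspa1b and 6.28 for Hspa1a, near-identical copies that can share reads. Hspa1b had 11, 3 and 8 counts in Control and 639, 594 and 854 in H/R. Hspa1a had 5 in each Control library and 328, 333 and 428 in H/R. The size of both changes thus rests on very few Control reads. The other higher gene, Dnajb1, rose from 1448 ± 48.4 to 3499 ± 77.9 normalized counts (SD, n = 3 each, log2 fold change 1.27). Hsph1 and Hspe1 had log2 fold changes of -0.37 and -0.31.

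**Figure D5:**
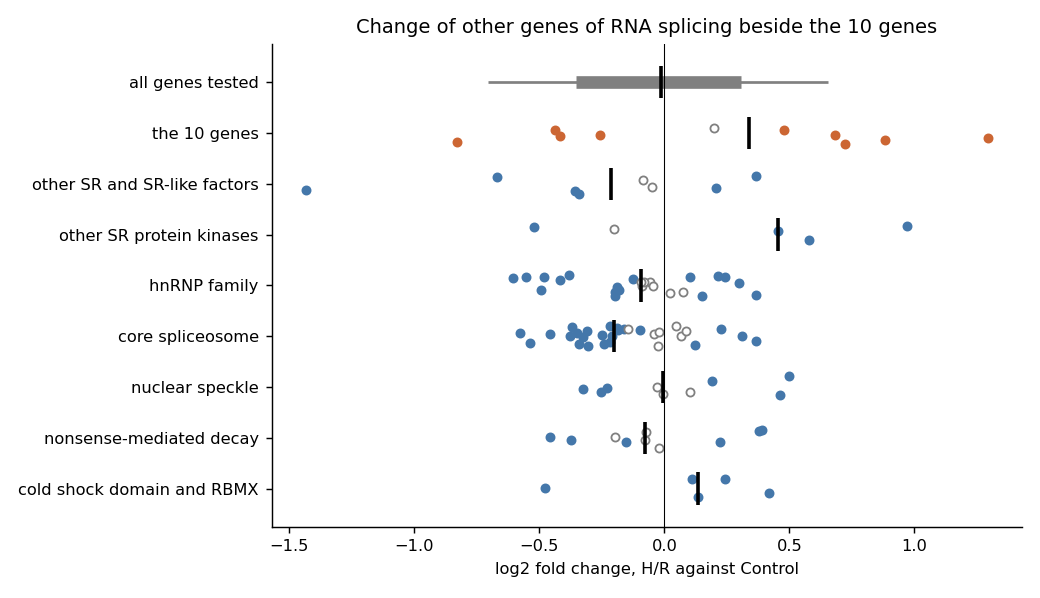
Log2 fold change of each tested gene of the 10 members and of the SR, SR kinase, hnRNP, core spliceosome, nuclear speckle, nonsense-mediated decay and cold shock lists (heat shock genes and cell type markers are not drawn), filled where the adjusted p was under 0.05 and open where it was not, with the list median as a black bar; the grey bar for all genes tested spans the interquartile range and its line the first to last decile. The 4 CLK genes lie to the right of that grey bar and, of the genes drawn, Srsf1 is farthest to the left.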

How the data were processed

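Total RNA of the 6 samples was made into stranded, paired-end mRNA libraries. The study's methods name GRCm38 as the genome and print the aligner as STRA. The submitters' processing notes also name Trimmomatic 0.36, featureCounts, Subread 1.5.1 and edgeR 3.12.1. The authors deposited a raw read count for each gene, not normalized. The deposited RPKM of each gene follows from the count, gene length and library total of the same table (largest relative error 1.13e-06).

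Testing used edgeR 4.0.16 in R 4.3.3 (filterByExpr, TMM, robust glmQLFit and glmQLFTest). Genes were called at an adjusted p under 0.05. Intervals are 95%, and standard errors follow from the F statistic. Normalized counts are counts divided by the effective library size, times its mean. The code of the fits was tested on simulated counts with the same dispersion for all genes and far fewer changed genes than these data. How the scaling behaves in these data was not tested by it. Alternatives were DESeq2 1.42.0, upper quartile scaling, library totals, no filter, a minimum of 10 counts in each library, a block for the replicate number, limma 3.58.1 on log2(RPKM + 1) and log2(RPKM + 0.1), no robust option, and leaving out each library. The members and gene lists were chosen with earlier results of these data known. Of each list, at most 2 called genes in each direction with a mean normalized count of at least 100 are named, and Dnajb1 of the heat shock list in addition.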

Additional observations from a re-analysis of the deposited data

How the results depend on the processing

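The log2 fold changes of the 10 members kept their sign under 15 alternatives and the 6 ratios, which have no call, under 7. Calls of the 9 members called were kept in each. With 1 library left out in turn, 5 to 6 members were higher and 4 were lower, the added gene being Cirbp without H/R replicate 2 (log2 fold change 0.25, adjusted p = 0.0493). Counts of called genes changed under some alternative in every pathway list. Those that moved by over 1.5 times follow, and the cause was not tested. Smaller moves include hnRNP genes lower, 10 to 16 over the alternatives against 11, and core spliceosome genes lower, 17 to 23 against 19. The number of other SR genes that were higher was 1, not 2, with library totals and with limma on log2(RPKM + 1) and on log2(RPKM + 0.1). Other SR kinases lower numbered 2, not 1, with upper quartile scaling, library totals and both limma fits, and 1 to 2 with a library left out (2 without Control replicate 1). hnRNP genes higher numbered 2, not 6, in both limma fits. Nuclear speckle genes higher numbered 3 to 5 with a library left out (5 without Control replicate 2). Nonsense-mediated decay genes lower numbered 6, not 3, with library totals and 5 with upper quartile scaling and both limma fits. Cold shock domain genes and Rbmx higher numbered 2, not 4, with upper quartile scaling, library totals and both limma fits, and 2 to 4 with a library left out (2 without H/R replicate 1). Heat shock genes higher numbered 1, not 3, when 10 counts were required in every library, since Hspa1a and Hspa1b then dropped out.

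Libraries with the same replicate number did not deviate together (correlations of their deviations from the group means -0.03, 0.00476 and -0.01). With the replicate block, 5 members were higher and 4 lower, the log2 fold change of Clk4 was 1.29, and the adjusted p of Cirbp was 0.0921 in edgeR's quasi-likelihood test. The counts of Cirbp limit what could be detected for it, and with 3 libraries a group the exact permutation test cannot go below 0.1.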
